A study of Mus musculus with 6 samples.

Results

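Ncl siRNA #2 was compared with a control siRNA in E14Tg2a mouse embryonic stem cells, an established line derived from the inner cell mass. The comparison used 4 of the 6 arrays of the study. They were 2 arrays of cells given Ncl siRNA #2 and 2 arrays of cells given a control siRNA against firefly luciferase, an insect gene that mouse cells lack. All 4 were labelled 96 h. The remaining 2 arrays, of cells given Ncl siRNA #1, entered the estimate of the spread and a direct comparison of the 2 Ncl siRNAs. Total RNA was measured on Affymetrix expression arrays, and values were deposited as log2, so a difference of 1 is a 2-fold difference. Every probe set that the platform annotation gives to exactly 1 gene symbol was used, and the brightest probe set stood for its gene, which gave 18194 genes. A single control duplex and a single cell line were used, and nothing in the labels says that the arrays of a group were separate cultures. P-values therefore measure only the spread between these arrays, which may be technical. In bulk RNA, fewer cells that express a gene and less RNA of it per cell cannot be told apart.

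Nucleolin, the product of Ncl, is an abundant protein of the nucleolus, where it takes part in the transcription and processing of ribosomal RNA. Embryonic stem cells divide fast and make ribosomes at a high rate. A block in ribosome production is known to free ribosomal proteins that bind Mdm2, which lets p53 accumulate. In cultures of mouse embryonic stem cells a small share of cells passes at any time through a state that resembles the 2-cell embryo. Proteins of the nucleolus, nucleolin among them, are known to help to keep the genes of that state silent.

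The control arrays stood apart from the Ncl siRNA arrays in transcripts that embryonic stem cells are not known to make. Scgb1a1, the secretoglobin of airway club cells, read 12.96 and 12.96 under the control siRNA, 3.80 and 4.01 under siRNA #2 and 3.29 and 3.69 under siRNA #1. Sftpc, a surfactant protein of alveolar type 2 cells, read 10.63 and 10.88 under the control siRNA and 5.02 and 5.11 under siRNA #2. In the control arrays both genes stood far above 5.76, the average of the array medians, and under siRNA #2 below it. Of 18194 genes tested 21.7% fell and 17.7% rose. Of 10 markers of airway secretory cells, 8 fell and 0 rose, with a median change of -2.83. Their median level was 7.23 and 7.27 in the control arrays and 4.32 and 4.40 with siRNA #2. Of 12 alveolar type 2 markers 10 fell (median change -1.03, and -1.07 to -1.02 with 1 array left out). These falls include that of Etv5, which was small (-0.13) with 2 of its 3 probe sets higher. Etv5 read 12.31 and 12.33 in the control arrays and 12.18 and 12.18 with siRNA #2, so it was not confined to the control arrays. Of 14 heart muscle markers 9 fell (-0.64, and -0.83 to -0.43 with 1 array left out). In some fits with 1 array left out, fewer markers of the airway, alveolar type 2 and heart lists were called lower. Among the heart markers that fell, the atrial myosin light chain gene Myl7 read 7.38 and 7.69 against 5.41 and 5.23. Other lung lists were mixed, with 6 of 10 alveolar type 1 markers lower and 3 higher, 7 of 15 stromal markers lower and 4 higher, and 2 of 7 ciliated cell markers each way. So were vessel and blood cell markers. Of 17 endothelial markers 6 fell, among them Vwf, von Willebrand factor (-1.96), and 5 rose, among them Eng, endoglin, by 1.44 (SE 0.099). With control replicate 1 or either siRNA #2 array left out, 3 rose. Of 23 leukocyte markers 4 fell and 2 rose, none of these rising without control replicate 1 or siRNA #2 replicate 2. The largest fall among them, of the lysozyme gene Lyz1 (-5.97), was -0.061 on a probe set not shared with other transcripts. The general leukocyte gene Ptprc differed by -0.32 (limma adjusted p = 0.209) and did not pass the test. Of 6 red blood cell markers 3 fell and 1 rose, and 0 changed at least 2-fold. Fewer of them were called in some fits with 1 array left out. Probe sets shared by the 2 alpha globin genes carry several symbols and stand outside that list. They fell, the brightest from 10.82 and 10.96 in the control arrays to 5.82 and 5.60 with siRNA #2. Of 7 liver markers 0 fell and 0 rose, with 1 fall when control replicate 1 was left out, and Alb, albumin, read 4.14 and 4.07 in the control arrays. Of 7 kidney markers 2 fell (1 without control replicate 2 or either siRNA #2 array) and 0 rose, of 8 skeletal muscle markers 1 fell and 2 rose, and of 7 brain markers 0 fell (1 without control replicate 1) and 2 rose (1 without siRNA #2 replicate 2). Of 13 feeder fibroblast markers 2 fell and 3 rose, 1 without control replicate 1 or either siRNA #2 array. The airway and alveolar type 2 lists were thus lower with siRNA #2 and the remaining lung lists were mixed. The part of these transcripts in any other fall was not tested.

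**Figure D1:**
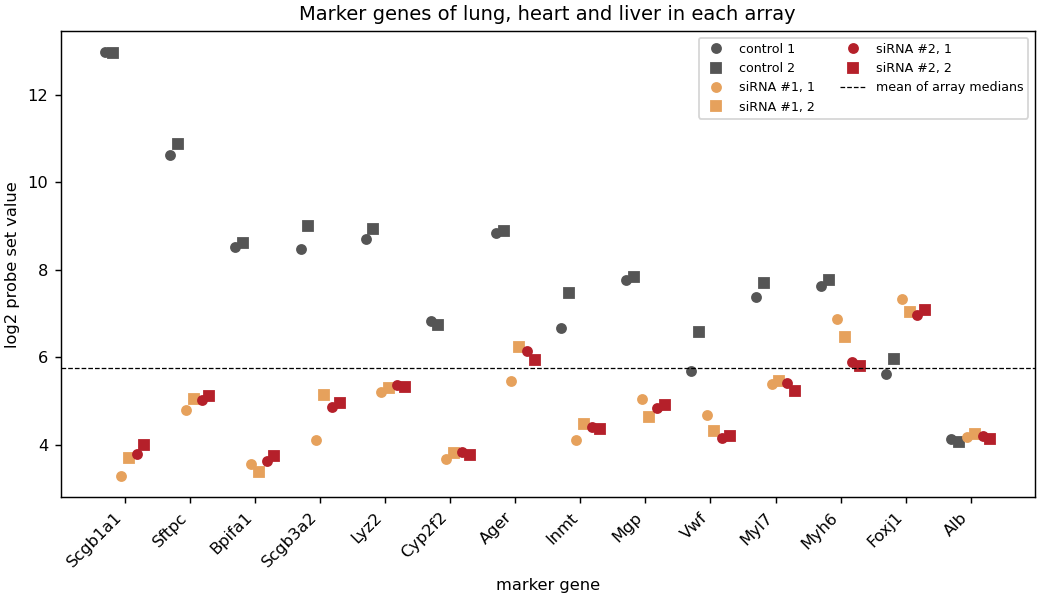
Log2 values (vertical axis) of 14 marker genes (horizontal axis) in each of the 6 arrays. Grey points are the control siRNA arrays, orange points the Ncl siRNA #1 arrays and red points the Ncl siRNA #2 arrays, with circles for replicate 1 and squares for replicate 2. The dashed line is the mean of the array medians, 5.76. Scgb1a1 and Sftpc stand at 10.63 or above in the control arrays and at 5.11 or below in the Ncl siRNA arrays, whereas Foxj1, of ciliated cells, stands higher in the Ncl siRNA arrays and Alb, of liver, differed by 0.066 without passing the test.

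Some technical values moved with the same split. Poly-A control transcripts of bacterial origin, spiked in ahead of labelling, averaged 7.66 under the control siRNA and 8.42 under siRNA #2. The 18S ribosomal RNA reading averaged 12.10 and 13.11, and spiked hybridisation controls 12.33 and 11.55. For Actb, whose 3′ probe set exceeds its 5′ one when RNA is degraded, that excess averaged 0.48 and 0.23. For Gapdh the same measure averaged -0.0268 under the control siRNA and 0.0105 under siRNA #2, so it did not show that split. The part of these differences in the results was not tested. The 2 arrays of a group differed by a median of 0.12 in the control arrays and 0.090 with siRNA #2. The number of arrays, 2 per group, limits the precision.

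Ncl itself fell with siRNA #2. Its brightest probe set read 14.21 in each control array and 13.77 and 13.72 with siRNA #2, a change of -0.46 (SE 0.040, limma adjusted p = 3.57e-09, 2 arrays each), which left 72.5% of control. The siRNA #2 arrays lay below both control arrays, as they did for 38.6% of all genes. Its other 4 probe sets stood at 51.2%, 33.6%, 69.0% and 44.9% of control, in order of falling signal. Between the 2 Ncl siRNAs the brightest probe set differed by -0.0063 (SE 0.040, limma adjusted p = 0.941), which did not pass the test. The arrays give no level of nucleolin protein.

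In all, 7180 of 18194 genes changed with siRNA #2 (39.5%) by limma at a Benjamini-Hochberg adjusted p under 0.05. Against the same control arrays, 6811 genes changed with siRNA #1 (37.4%), 3668 up (20.2%) and 3143 down (17.3%). With siRNA #2, 3228 rose (17.7%) and 3952 fell (21.7%). The median change over all genes was -0.037. Falls were more numerous. Among called genes the median rise was 0.62 and the median fall -0.51. At least 2-fold, 1285 genes changed (7.06%), of which 882 rose (4.85%) and 403 fell (2.22%). At least 4-fold, 1.48% of genes changed, and 238 rose (1.31%) and 31 fell (0.17%), and at least 16-fold, 22 rose (0.121%) and 4 fell (0.022%). The smallest called change was 0.10. Of the 31 genes that fell 4-fold or more, 18 had a mean below the array median with siRNA #2. Of the same 31, 15 stood in a list of lung, blood, heart or other tissue markers. These lists hold 154 of the 18194 genes and were chosen with earlier results of these data known. Of all 3952 that fell, 60 stood in such a list, and with those lists left out 7095 genes changed, 3205 up and 3890 down. The siRNA #2 and control arrays did not overlap for 69.6% of all genes, 31% above and 38.6% below.

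**Figure D2:**
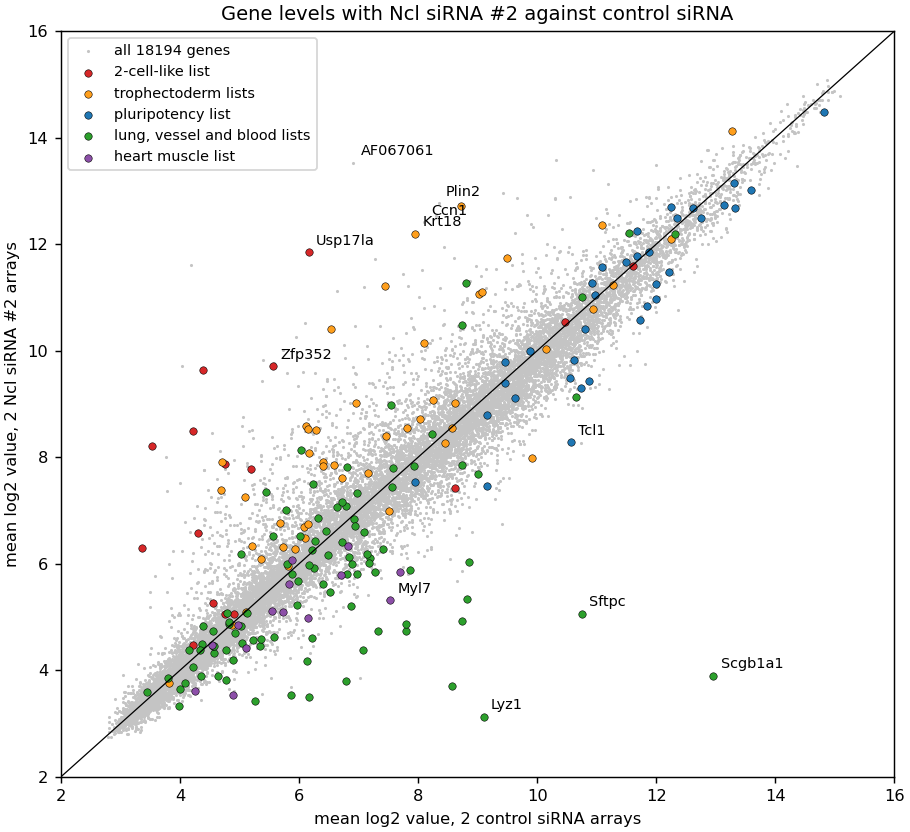
Mean log2 value of each of 18194 genes in the 2 control siRNA arrays (horizontal axis) against the 2 Ncl siRNA #2 arrays (vertical axis), with the line of equality. Coloured points are members of gene lists. Genes of the 2-cell-like and trophectoderm lists (red and orange) lie mostly above the line, lung, vessel and blood markers (green) include the points farthest below it, and Scgb1a1 is the lowest relative to the line.

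The 22 rises of 16-fold or more included 2-cell embryo genes, members of other lists and genes outside every list used here. The gene model Gm20767 rose most, by 7.43, and has no established name. AF067061 rose from 6.77 and 7.05 under the control siRNA to 13.46 and 13.61 (log2 change 6.62, SE 0.082, 98.6-fold, limma adjusted p = 7.24e-23). BC080696 rose by 5.69 (SE 0.14) and Usp17la, a deubiquitinase gene active in 2-cell embryos, by 5.68 (SE 0.11). Among the rest, Htra1, a secreted serine protease, read 7.14 and 7.41 under the control siRNA and 11.67 and 11.78 under siRNA #2. Plin2, the coat protein of lipid droplets, read 8.29 and 8.40 against 12.74 and 12.80. Thbs1, the adhesive glycoprotein thrombospondin-1, rose by 4.43 (SE 0.11), and Rnf128, a ubiquitin ligase of T cells, by 4.47 (SE 0.086). Slc5a5, the iodide transporter of the thyroid, rose by 4.29 (SE 0.12), and Tmcc3 by 4.43 (SE 0.090). Every one of these genes read higher in both siRNA #2 arrays than in either control array, as did 31% of all genes. They were picked for the size of their rise, so this adds no support.

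Falls outside the tissue marker lists are described for genes whose mean under siRNA #2 was above 5.76, the mean of the array medians, a choice that limits how large a fall can be. Serpinb6c, a serpin, fell by 2.87 (SE 0.15), from 8.67 and 8.79 to 6.02 and 5.71, of which the second value lies below 5.76. Lefty2, a secreted inhibitor of Nodal, fell by 2.66 (SE 0.13), from 9.34 and 9.49 to 6.92 and 6.58. Lrrc34 fell by 2.47. Ly75, an endocytic receptor, fell by 2.31. Tcl1, a cofactor of the kinase Akt that is high in embryonic stem cells, fell by 2.28. Falls of about 4-fold were also seen for Dpys, an enzyme of pyrimidine breakdown (-2.18), Cbr3, a carbonyl reductase (-2.05), Zmat4 (-2.10), Mitf, the regulator of melanocyte genes (-2.01), and Klf15, a zinc finger factor (-2.01). Krt17, an epithelial keratin, was also among the 15 largest falls, at 8.54 and 8.76 against 5.58 and 5.78. The lung markers fell in the same arrays, and their part in these falls was not tested.

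**Figure D3:**
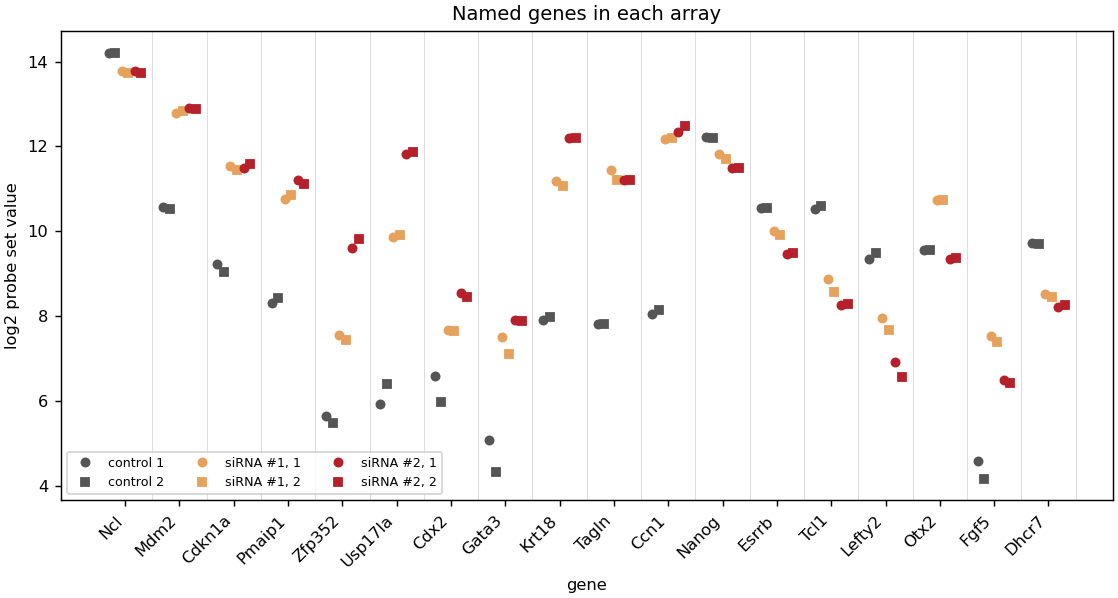
Log2 values (vertical axis) of 18 genes (horizontal axis) in each of the 6 arrays, coloured as in the plot of lung markers. With siRNA #2, Ncl, the pluripotency genes, Lefty2 and Dhcr7 stand lower than in the control arrays, and the p53 targets, Zfp352, Usp17la, Cdx2, Gata3, Krt18, Tagln, Ccn1 and Fgf5 stand higher. Zfp352 and Usp17la are higher with siRNA #2 than with siRNA #1, and Otx2 is lower.

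Targets of p53 rose. Of 28 targets for arrest and feedback, 22 rose and 3 fell (median 0.84, against -0.037 for all genes), and of 12 targets for cell death, 11 rose and 0 fell (0.96). Of all genes 17.7% rose. Cdkn1a, whose product p21 blocks cyclin-dependent kinases, read 9.24 and 9.05 under the control siRNA and 11.49 and 11.59 under siRNA #2, a rise by 2.40 (SE 0.071) with limma adjusted p = 6.85e-17. Mdm2, the ligase that marks p53 for breakdown, read 10.57 and 10.54 against 12.91 and 12.88 (rise 2.34, SE 0.050), with 2 of its 3 probe sets higher. Pmaip1, also called Noxa, a trigger of cell death, read 8.31 and 8.43 against 11.22 and 11.12, and Perp, another death target, rose by 2.57 (SE 0.058). Ddit4 and Plk2 rose by 2.54 (SE 0.054) and 2.49 (SE 0.055), and the death receptor gene Fas by 2.09 (SE 0.31). The members that fell were Tigar, which limits glycolysis (-1.22), Ddb2, of DNA damage recognition (-0.64), and Sesn2, of stress signalling (-0.36). The counts of both p53 lists were the same in all 6 fits that left out 1 array. In the Bcl2 family 6 of 14 rose and 4 fell, 2 without control replicate 2 or siRNA #2 replicate 1. Bcl2l1, which guards against death, rose by 1.11 (SE 0.073), and Bmf, which promotes it, fell by 1.43 on its brightest probe set. Bmf did not fall when probe sets shared with other transcripts were left out.

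Genes of the 2-cell state rose. Of 16 measured members, 10 rose and 1 fell (median 2.43), against 17.7% and 21.7% of all genes. Their levels were low in the control arrays, so with genes below the median signal left out only 6 members remained and 3 rose. Zfp352, a zinc finger gene that marks 2-cell embryos, read 5.65 and 5.49 under the control siRNA and 9.62 and 9.81 under siRNA #2, a rise by 4.14 (SE 0.13) with limma adjusted p = 1.13e-16. Usp17la read 5.94 and 6.39 against 11.83 and 11.87. Pramel18 rose by 5.25 (SE 0.13), Tcstv3 by 4.67 (SE 0.17) and Arg2, an arginase of mitochondria, by 4.28 (SE 0.16). Tcstv1 rose by 3.12 (SE 0.16) and Tdpoz1 by 2.27 (SE 0.19). Duxf3, a Dux gene whose product activates this program, rose by 0.72 (SE 0.17), from 4.62 and 4.47 to 5.20 and 5.33. These values all lie below 5.76, the mean of the array medians. Pramel13, a gene of the Prame family, fell by 1.20. Probe sets shared by the Zscan4 genes, the best known markers of the state, stand outside the list since they carry several symbols. The highest of them read 6.61 and 6.75 in the control arrays and 13.14 and 13.22 with siRNA #2, a rise by 6.50. Many of these genes belong to families of near-identical copies that share probes, so a value may stand for several copies. Of 26 germline genes 13 rose and 3 fell (median 0.36). Taf7l, a testis transcription cofactor, rose by 2.57 (SE 0.13), Slc25a31 by 2.31 (SE 0.16), Dazl, of germ cell development, by 1.61 (SE 0.14), and Ddx4, also called Vasa, by 1.17 (SE 0.099).

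Regulators that silence these genes were measured too, where 21.7% of all genes fell and 17.7% rose. Of 25 chromatin repressors 11 fell and 3 rose, and 6 fell in a fit of the variances without a trend. Those that fell included Mga, which holds germline genes silent (-1.08), Zfp57, which keeps imprints (-1.10), and Chaf1b, of the chromatin assembly complex (-0.68). E2f6, a repressor of germline genes, rose by 1.20 (SE 0.083). Trim28, which partners with nucleolin in embryonic stem cells, differed by -0.036 (limma adjusted p = 0.565) and did not pass. The histone demethylase gene Kdm1a fell by 0.24. Of 12 DNA methylation enzymes 7 fell and 1 rose (2 with control replicate 1 or either siRNA #1 array left out). The falls included Tet2 (-0.95) and Tet3 (-0.76), which oxidise methylated cytosine, and Dnmt3a (-0.37), which methylates it anew.

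Trophectoderm genes rose. Trophectoderm is the outer layer of the blastocyst that forms the placenta, and embryonic stem cells rarely enter it. Of 19 transcription factors 13 rose and 1 fell (median 0.81), and of 29 effector and placental genes 21 rose and 1 fell (0.95). Of all genes 17.7% rose and 21.7% fell. In the effector list 3 fell when either siRNA #1 array was left out. Gata3, a regulator of the lineage, read 5.08 and 4.34 under the control siRNA and 7.91 and 7.90 under siRNA #2, a rise by 3.19 (SE 0.20, limma adjusted p = 1.49e-11). Cdx2, the factor that opposes Pou5f1 in the lineage, read 6.60 and 5.98 against 8.55 and 8.47, and Eomes 6.82 and 7.10 against 9.01 and 9.03. Elf5 and Ets2 differed by -0.023 and -0.19 and did not pass the test. Krt8 and Krt18, the keratins of simple epithelia, rose by 3.99 (SE 0.061) and 4.25 (SE 0.067), Krt19 by 3.88 (SE 0.098), and Dsp, the desmosome protein desmoplakin, by 3.76 (SE 0.085). Krt8 and Krt18 lie next to each other in the genome. Tpbpa, of placental spongiotrophoblast, differed by -0.056 (limma adjusted p = 0.833) and did not pass. Ceacam1, a cell adhesion gene, fell by 1.92.

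Pluripotency genes mostly fell. Of 34 members 21 fell and 7 rose (median -0.38), against 21.7% and 17.7% of all genes. Pou5f1, also called Oct4, read 13.56 and 13.61 under the control siRNA and at most 13.03 under siRNA #2, a change of -0.57 (SE 0.050, limma adjusted p = 3.61e-09) to 67.2% of control. Nanog fell by 0.72 to 60.6%, from 12.23 and 12.19 to 11.49 and 11.49. The naive pluripotency factors Esrrb, Tfcp2l1, Prdm14 and Nr5a2 fell (-1.08, -1.44, -1.69 and -1.43 on the log2 scale), as did Klf4 (-0.73). Sox2 fell by 0.16 (limma adjusted p = 0.0183) and lost its call under 7 alternatives, 3 of them with 1 array left out. Those that rose included Klf5, which is also a trophectoderm factor, by 0.57 (SE 0.052), and Stat3 by 0.34 (SE 0.077). In the LIF pathway, which sustains these genes, the receptor gene Lifr fell by 0.79, with 1 of its 3 probe sets higher, and the gene of its feedback inhibitor Socs3 also fell (-1.02).

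Other lineages were mixed, set against 17.7% of all genes that rose and 21.7% that fell. Of 24 genes of the primed epiblast, the state that follows naive pluripotency, 10 rose and 10 fell, and 6 fell without control replicate 1. Fgf5, its usual marker, read 4.58 and 4.17 under the control siRNA and 6.51 and 6.42 under siRNA #2. Otx2, another marker, read 9.56 and 9.57 against 9.34 and 9.38, and its change of -0.20 (limma adjusted p = 0.0255) lost its call under 6 alternatives, among them each of the 4 that left out a control or siRNA #2 array. Lefty1 fell by 1.56. Of 25 extraembryonic endoderm genes 8 rose and 6 fell, the falls near the share of all genes. Gata6, their leading factor, differed by -0.29 (limma adjusted p = 0.203) and did not pass, and Sparc, which binds collagen, rose by 1.84 (SE 0.063), although 1 of 3 probe sets read lower. Of 23 mesoderm genes 7 rose and 2 fell (1 without any 1 of the control or siRNA #2 arrays), and of 22 neural genes 8 rose and 4 fell, with Nefm, a neurofilament gene, up by 2.72 (SE 0.18) and Tubb3, a neuronal tubulin, at -0.92.

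**Figure D4:**
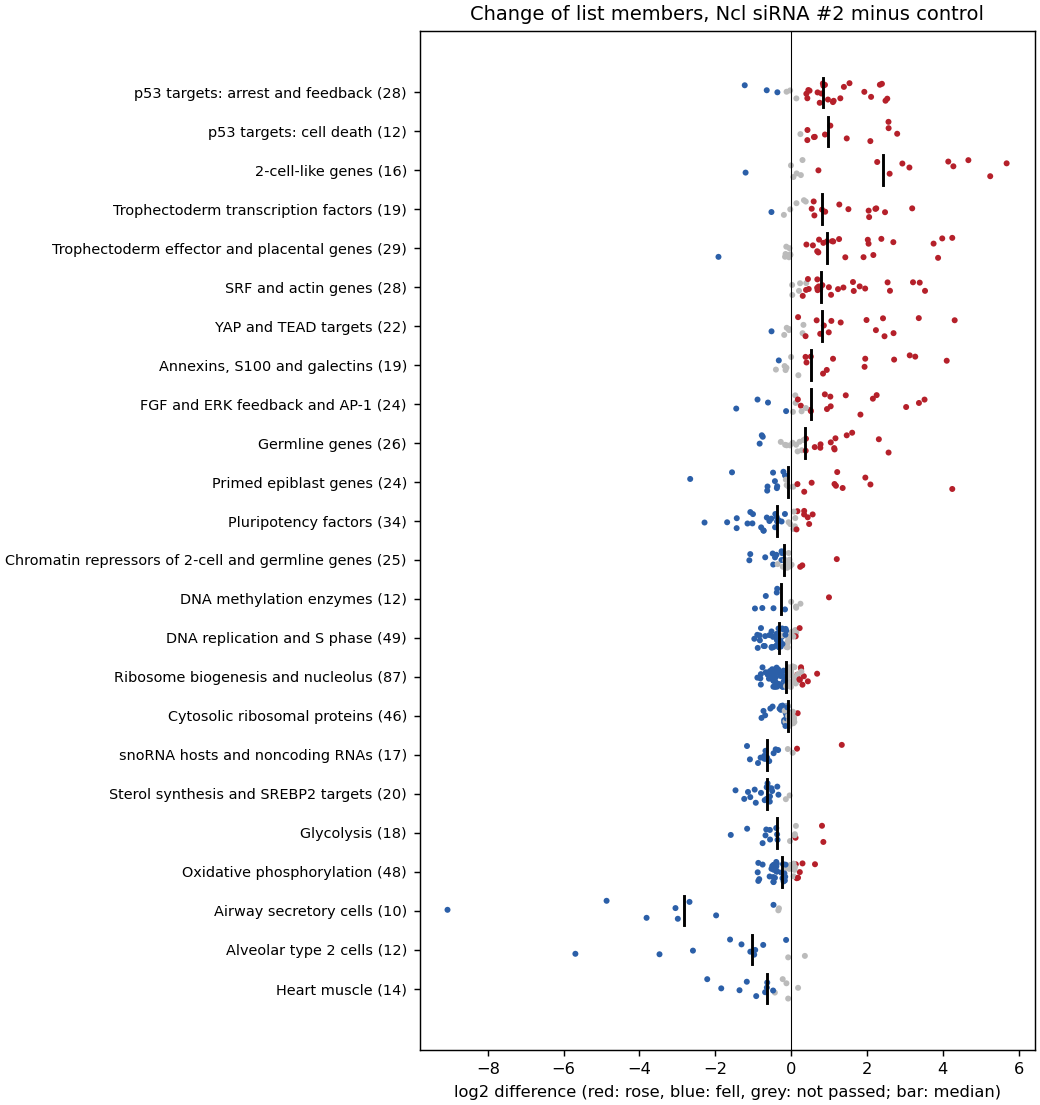
Log2 change of every measured member of 24 gene lists (rows, with the number of members in parentheses), Ncl siRNA #2 minus control. Red points rose and blue points fell at a limma adjusted p under 0.05, grey points did not pass, and black bars are list medians. The bars of the 2-cell-like and p53 lists lie at 0.84 or above, those of the pluripotency, sterol and glycolysis lists below 0, and the airway list lies lowest at -2.83.

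Genes of contractile actin and of the matrix rose, against 17.7% of all genes that rose and 21.7% that fell. Serum response factor (SRF) and its coactivators drive actin genes when actin filaments form. Of 28 SRF and actin genes 23 rose and 0 fell (median 0.80). Cald1, an actin-binding protein, rose by 3.53 (SE 0.059), Tagln, also called SM22, from 7.83 and 7.83 to 11.22 and 11.22, and Tpm1, a tropomyosin, by 3.21 (SE 0.060). YAP and TEAD factors act when cells spread, and 15 of 22 of their targets and pathway genes rose and 1, Dlc1, fell (0.82). Ccn1, a matrix signalling protein, read 8.06 and 8.15 under the control siRNA and 12.35 and 12.48 under siRNA #2, a rise by 4.31 (SE 0.064). Ccn2 rose by 2.46 (SE 0.048), and Axl, a receptor kinase, by 3.37 (SE 0.20). Of 29 integrin, laminin and basement membrane genes 15 rose and 3 fell, Itga3 by 2.34 (SE 0.11) and Itgb4 by 2.22 (SE 0.13). Of 19 annexins, S100 proteins and galectins 12 rose and 1 fell (0 to 3 with 1 array left out), with Anxa3 at 4.10 (SE 0.080), S100a6 at 3.27 (SE 0.047) and Anxa1 at 3.13 (SE 0.063). In the list of FGF feedback and AP-1 genes 15 of 24 rose, among them Fosl2 by 3.37 (SE 0.16) and Fosl1 by 3.03 (SE 0.15), and 4 fell, among them Fgf4 (-1.45). The neighbouring genes Sbsn, Dmkn and Krtdap of skin keratinocytes all rose, Sbsn by 4.32 (SE 0.097), Dmkn by 3.70 (SE 0.15) and Krtdap by 2.06 (SE 0.16), and so did the small heat shock genes Cryab, by 3.70 (SE 0.077), and Hspb2, by 2.52 (SE 0.11), which lie side by side.

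Promoters of these lists were searched for the letters that TEAD and SRF factors bind. The sequences are the 250 bases before the start of each gene, from RefSeq on GRCm38.p6, in lower case with the motif in capitals. The first 2 are shown because Ccn1 and Axl rose far and hold the TEAD letters GGAATG. A gene with several annotated starts was counted when any of its windows held the letters, so genes with more starts had more chances to match. Of 16 such targets with a promoter in RefSeq, 10 hold them on either strand (62.5%), against 13.4% of all 14453 genes with a promoter. Of the 10, 8 rose, and of the other 6, 3 rose. The other 2 hold a CArG box, the SRF motif of CC, 6 bases of A or T, and GG, which was searched on both strands. Of 25 SRF and actin genes with a promoter 8 hold one (32.0%), against 1.4% of all, and 7 of the 8 rose and 14 of the other 17.
Ccn1, chr3:145649986-145650235, minus strand: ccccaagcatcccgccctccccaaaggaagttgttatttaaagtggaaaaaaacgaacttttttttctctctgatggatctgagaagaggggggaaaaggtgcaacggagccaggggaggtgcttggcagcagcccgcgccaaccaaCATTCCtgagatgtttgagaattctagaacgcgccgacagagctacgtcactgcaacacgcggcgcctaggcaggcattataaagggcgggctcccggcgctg
Axl, chr7:25788734-25788983, minus strand: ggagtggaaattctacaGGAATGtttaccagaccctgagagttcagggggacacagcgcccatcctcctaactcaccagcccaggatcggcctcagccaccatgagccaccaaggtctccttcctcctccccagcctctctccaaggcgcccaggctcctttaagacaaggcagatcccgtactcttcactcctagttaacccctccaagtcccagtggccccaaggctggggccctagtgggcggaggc
Cnn2, chr10:79988350-79988599, plus strand: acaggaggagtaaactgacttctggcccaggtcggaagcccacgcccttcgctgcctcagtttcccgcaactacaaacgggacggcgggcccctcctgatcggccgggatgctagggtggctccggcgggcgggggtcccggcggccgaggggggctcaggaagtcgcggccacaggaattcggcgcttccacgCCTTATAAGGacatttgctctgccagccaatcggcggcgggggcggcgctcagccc
Acta1, chr8:123894776-123895025, minus strand: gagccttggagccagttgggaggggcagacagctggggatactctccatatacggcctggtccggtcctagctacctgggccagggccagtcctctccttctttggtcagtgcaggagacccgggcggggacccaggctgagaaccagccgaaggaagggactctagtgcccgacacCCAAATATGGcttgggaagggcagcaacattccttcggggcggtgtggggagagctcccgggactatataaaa
In Ccn1 the letters stand on the opposite strand (CATTCC), and in Axl on the gene's own strand. The palindromic box of Cnn2 (CCTTATAAGG) and the box of Acta1 start 56 and 73 bases before the gene. A match is a description of the letters and shows no binding.

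Genes of DNA replication fell, against 21.7% of all genes that fell and 17.7% that rose. Of 49 genes of DNA replication and S phase 34 fell and 2 rose (1 without any 1 of the control or siRNA #2 arrays, median -0.32). Tk1, the thymidine kinase of S phase, fell by 0.97, from 10.04 and 9.98 to 9.03 and 9.05. Rfc3, a clamp loader subunit, fell by 0.88 (SE 0.078, limma adjusted p = 5.23e-09), and so did Gins2 of the replicative helicase (-0.83) and Rpa3 of the single-strand binding complex (-0.82). Mcm2 and Mcm7 differed by -0.082 and -0.012 and did not pass. Of 31 mitosis and centromere genes 13 fell and 5 rose, 8 and 3 in a fit without a variance trend, and Cenph, of the kinetochore, fell by 0.97. Ccnb2, a cyclin of mitosis, differed by -0.10 (limma adjusted p = 0.168) and did not pass. Among G1 genes Ccnd2, a cyclin, rose by 1.87 (SE 0.075) and Rb1, the retinoblastoma gene, by 2.01 (SE 0.073), while Rbl1 fell by 1.01. E2F factors drive S phase genes. Of 41 replication genes with a promoter 9 (22.0%) held an E2F motif (TTTGGCGC, TTTCGCGC or TTTCCCGC, both strands) against 2.7% of all. Of these 9, 7 fell, and 21 of the 32 without one fell. Rfc3 is shown because its fall was among the largest of these, with the motif in capitals 10 bases before its start:
Rfc3, chr5:151651209-151651458, minus strand: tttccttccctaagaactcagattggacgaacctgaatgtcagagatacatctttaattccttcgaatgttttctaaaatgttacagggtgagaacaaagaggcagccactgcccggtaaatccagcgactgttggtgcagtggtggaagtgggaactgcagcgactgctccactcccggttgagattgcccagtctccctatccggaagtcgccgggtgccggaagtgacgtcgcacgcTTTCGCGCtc

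Ribosome production genes fell slightly. In the list of 87 ribosome biogenesis genes 46 fell and 9 rose, with a small median of -0.15. The falls include that of Ncl, the gene the siRNA targets. For comparison, 21.7% of all genes fell and 17.7% rose. The largest falls included Ftsj3 (-0.89) and Nop10 (-0.80), of ribosomal RNA processing and modification, and Tcof1, the treacle protein of ribosomal RNA transcription (-0.76). Fbl, of ribosomal RNA methylation, fell by 0.20, a call that ended on probe sets not shared with other transcripts and without a variance trend. Npm1, another major nucleolar protein, differed by 0.037 (limma adjusted p = 0.537) and did not pass. Of 46 ribosomal proteins 19 fell and 1 rose, with a median of -0.081, and fewer (11 with quantile normalization, 8 without a variance trend, 12 without control replicate 2 and 11 without siRNA #2 replicate 1) fell in the alternatives. Of 17 snoRNA hosts and noncoding RNAs 13 fell and 2 rose (1 without any 1 of the control or siRNA #2 arrays), Snhg8 (-1.09) and Snhg6 (-0.87) among the falls. Neat1, of paraspeckles, rose by 1.34 (SE 0.089).

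Metabolic genes fell in a number of pathways, where 21.7% of all genes fell and 17.7% rose. Of 20 genes of sterol synthesis 18 fell and 0 rose (median -0.63, with 17 to 18 in fits that left out 1 array). Dhcr7, which makes cholesterol in its last step, read 9.72 and 9.71 under the control siRNA and 8.22 and 8.28 under siRNA #2, a change of -1.47 (SE 0.089, limma adjusted p = 1.24e-11). Lss, lanosterol synthase, fell by 1.24, a call that ended (-0.26) on probe sets not shared with other transcripts, and Insig1, whose product anchors the sterol sensor, fell too (-1.14). The members that did not pass were Sqle at -0.14 (limma adjusted p = 0.129) and Sc5d at -0.039 (limma adjusted p = 0.825). SREBP2, which drives these genes, acts with NF-Y at CCAAT boxes. In this list 16 of 16 genes with a RefSeq promoter held CCAAT on 1 or both strands, against 39.4% of all such genes. Of these 16, 15 fell. Insig1 is shown because it fell more than 2-fold, with the box on the opposite strand (ATTGG) in capitals:
Insig1, chr5:28071162-28071411, plus strand: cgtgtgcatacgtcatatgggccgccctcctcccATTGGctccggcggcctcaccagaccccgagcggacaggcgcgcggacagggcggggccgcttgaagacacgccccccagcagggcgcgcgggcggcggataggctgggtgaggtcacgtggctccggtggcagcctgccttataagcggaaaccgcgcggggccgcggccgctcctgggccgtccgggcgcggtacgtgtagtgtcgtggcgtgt
Of 12 fatty acid genes 7 fell and 0 rose, with Scd1, a desaturase, down from 9.21 and 9.37 to 7.34 and 7.09. In the lipid droplet list 5 of 20 rose, Plin2 most, and 6 fell. Fabp4 and Cd36, which fell (-1.82 and -1.28), are made by vessels and fat too. In glycolysis 10 of 18 fell and 3 rose, with the enzyme genes Aldoc (-1.59) and Pfkp (-1.16) among the falls. In oxidative phosphorylation 32 of 48 fell and 6 rose, with a median of -0.24. Uqcrh, a subunit of complex III, had 1 of the larger falls there (-0.88). Of 24 ATF4 targets and serine synthesis genes 12 fell and 5 rose. Phgdh, the first enzyme of serine synthesis, fell by 1.14, while Atf3, a stress factor, rose from 5.94 and 6.01 to 9.33 and 9.34. The heat shock gene Hspa1a rose by 3.09 (SE 0.12). Of the 22 chaperones of its list 10 rose and 4 fell (median 0.12), and in a fit without a variance trend 4 rose and 2 fell.

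Among imprinted genes, which are read from 1 parental copy, 15 of 23 rose and 2 fell, against 17.7% and 21.7% of all genes. Igf2, the fetal growth factor, read 8.30 and 8.31 under the control siRNA and 12.53 and 12.54 under siRNA #2, a rise by 4.23 (SE 0.059, limma adjusted p = 2.85e-22). The neighbours Sgce and Peg10 rose by 2.70 (SE 0.11) and 2.17 (SE 0.16). Dcn, which is also a stromal marker, fell by 1.66. Of 32 interferon genes 4 rose and 10 fell. Gbp2 rose by 2.78 (SE 0.14), and Ifit2, Irf9 and Eif2ak2, which respond to double-stranded RNA or interferon, fell (-1.19, -1.07 and -0.95). Over the mean of all its probe sets Eif2ak2 lost its call, at -0.27. Of 24 Wnt genes 14 rose and 2 fell (4 without either siRNA #1 array), with Wnt4 up by 3.32 (SE 0.11).

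The 2 Ncl siRNAs were then compared directly. In limma 1543 of 18194 genes differed (8.48%), 418 higher with siRNA #2 (2.3%) and 1125 lower (6.18%), so that 27.1% of those that differed were higher. With quantile normalization 1163 differed and 48.8% were higher, and without a variance trend 142 differed. With 1 array left out, 732 differed without siRNA #1 replicate 1, 4301 without siRNA #1 replicate 2, 451 without siRNA #2 replicate 1 and 483 without siRNA #2 replicate 2. At least 2-fold, 40 genes were higher (0.22%) and 16 lower (0.0879%), 0.308% of all. Of the 2-cell list 9 of 16 were higher (7 to 9 with 1 array left out) and 1 lower (0 without either siRNA #2 array, 2 without either control array and 3 without siRNA #1 replicate 2). Zfp352 read 9.62 and 9.81 with siRNA #2 and 7.56 and 7.43 with siRNA #1. Its difference was 2.22 (SE 0.13, limma adjusted p = 2.42e-10), and Tcstv1 and Tdpoz1 differed by 2.26 and 2.01. Tdpoz1 read 4.04 and 4.57 under the control siRNA, 4.48 and 4.66 under siRNA #1 and 6.63 and 6.52 under siRNA #2. The siRNA #1 values of Tdpoz1 were close to those of the control arrays. Of the trophectoderm effector list 15 of 29 were higher and 0 lower. With 1 array left out 10 to 15 were higher and 0 to 3 lower, the 3 without siRNA #1 replicate 2, and without a trend 6 were higher. Krt18 differed by 1.08, Dsp by 0.93, and Cdx2 by 0.84. Of the pluripotency list 22 of 34 were lower and 1 higher, but 12 were lower with the mean of all probe sets, 13 without siRNA #1 replicate 1, 9 without siRNA #2 replicate 1, 11 without siRNA #2 replicate 2 and 0 without a trend. Esrrb differed by -0.48 (limma adjusted p = 0.00015) and Pou5f1 by -0.23. Of the 28 p53 arrest genes 4 were lower (1 to 7 with 1 array left out) and 2 higher (0 to 2), with Cdkn1a at 0.043 (limma adjusted p = 0.748). Of the 24 primed epiblast genes 11 were lower (9 to 11 with 1 array left out) and 2 higher (1 to 2). Otx2 read 9.34 and 9.38 with siRNA #2 and 10.73 and 10.74 with siRNA #1, a difference of -1.37 (SE 0.071, limma adjusted p = 6.39e-11). Fgf5 differed by -1.01 and Lefty2 by -1.06. Of the 10 airway markers 0 differed between the Ncl siRNAs in limma, though not in every fit that left out 1 array. Their median level was 3.92 and 4.27 with siRNA #1 and 4.32 and 4.40 with siRNA #2, below the array medians. Differences between such dim genes may not be measurable, so no conclusion is drawn from this count.

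By the rule for single genes, the lowest differences outside these lists were those of Aspa, an enzyme that splits N-acetylaspartate (-1.56), Cd59a, an inhibitor of complement (-1.24), Syce3, of the meiotic synaptonemal complex (-1.16), and Pla2g4a, a phospholipase (-1.15). Aspa read 5.01 and 5.26 under the control siRNA, 6.92 and 6.69 under siRNA #1 and 5.17 and 5.31 under siRNA #2. It was thus higher with siRNA #1 than in either other group. The highest included BC080696 (2.08), Spz1, a testis factor (1.90), and AF067061 (1.72), which rose with both siRNAs against the control arrays.

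**Figure D5:**
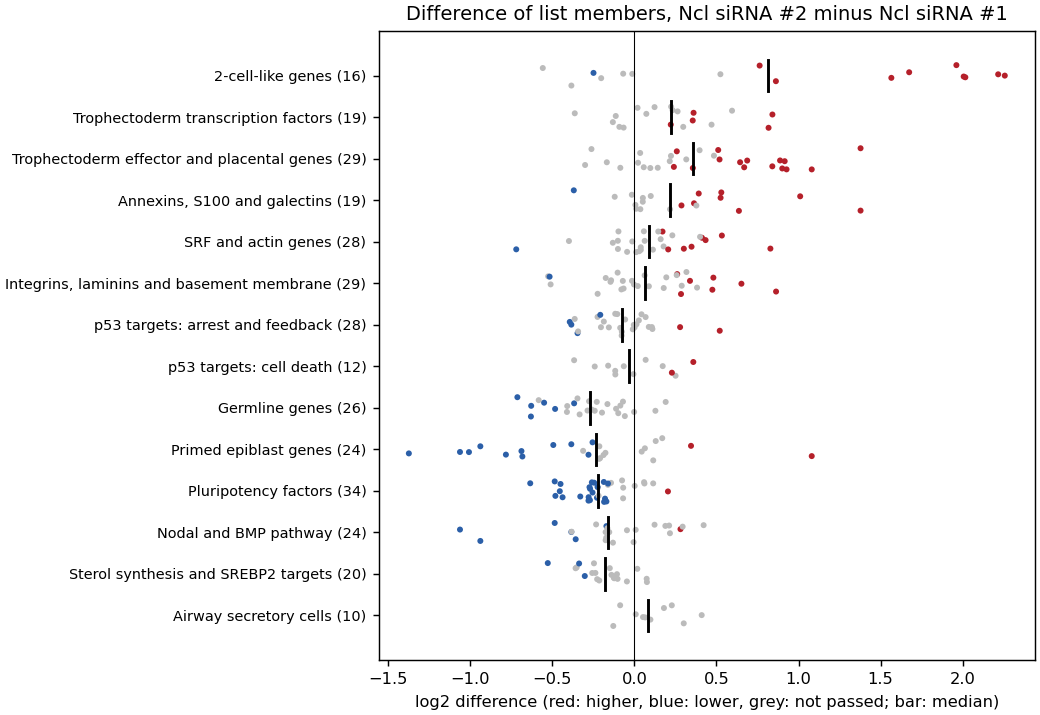
Log2 difference, Ncl siRNA #2 minus Ncl siRNA #1, of every measured member of 14 gene lists, with colours for a limma adjusted p under 0.05 (red higher with siRNA #2, blue lower, grey not passed) and bars for medians. The 2-cell-like list reaches highest, to 2.26 for Tcstv1, and the primed epiblast list reaches -1.37 for Otx2. In the airway list, whose median level lay below the array median in each Ncl siRNA array, 0 of 10 members passed.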

How the data were processed

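Per the labels' protocols, RNA was extracted with RNeasy columns (Qiagen), labelled with biotin by in vitro transcription and hybridised to Affymetrix arrays. The values deposited by the authors are on a log2 scale, and their normalization is not given in the sources used here. No further normalization was applied. Of 45101 probe sets, 34958 carry 1 symbol in the platform annotation, 932 several and 9211 none. The brightest probe set by mean over 6 arrays stood for each of 18194 genes, 9012 of which have several. In limma 3.58.1 (R 4.3.3), a mean for each of the 3 groups was estimated from the 6 arrays together, with a variance trend (residual degrees of freedom 3, prior 17.51), and p-values were Benjamini-Hochberg adjusted over all genes with a threshold of 0.05. Contrasts are siRNA #2 minus control and siRNA #2 minus siRNA #1. "Without a trend" means 1 prior variance for all genes. The alternatives covered normalization, probe set choice, dim genes, variance model, threshold, a replicate block and each array left out.

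The siRNA #2 arrays, gene lists and tests were chosen with earlier results of these data known. The genes named are the 15 highest and lowest changes, the 12 lowest above the array median in no tissue list, the 12 highest whose control mean is above it, the 8 highest and lowest differences between the Ncl siRNAs, up to 5 members of each list by size of change, and a fixed set, passing over Gm and Rik names. Other members named, the genes in neighbouring positions and those opposed between siRNAs were picked after their values were seen. In simulated data of 18194 genes for siRNA #2 minus control, the test found 37 of 57 changes of 0.5, 62 of 62 of 1 and 81 of 81 of 2 on the log2 scale, with 11 false calls. Only those genes were changed there, with independent noise from the variance trend and no shift of whole arrays. In the data 39.5% of genes were called and technical values differed between the groups, so these rates need not hold for them. Promoter windows are RefSeq's on GRCm38.p6, 32851 in all, found for 14453 genes measured here. In the motif counts a gene held a motif when any of its windows did.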

Additional observations from a re-analysis of the deposited data

Results flagged for a closer look

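In 11 genes siRNA #2 and siRNA #1 moved opposite ways from the control arrays and the direct limma test of siRNA #2 minus siRNA #1 passed. In 9 of them siRNA #1 was above and siRNA #2 below the control. Some of the calls against the control arrays were marginal, with limma adjusted p = 0.0255 for Otx2, 0.0499 for Etv5 and 0.037 for Zfp638 with siRNA #2. The call of Otx2 ended in each fit that left out a control or siRNA #2 array. For siRNA #2 against control the probe sets of Zfp638 and Uba1y were split evenly between higher and lower, and 2 of 3 of Etv5 were higher. Otx2 differed by -1.37, Uba1y by -1.11, Gm9564 by -1.02, Cemip2 by -0.79, Dnmt3a by -0.68, Txlng by -0.55, Zfp532 by -0.37, Etv5 by -0.37 and Zfp638 by -0.34. The other 2, B2m, the light chain of class I histocompatibility molecules, at 0.85, and Fth1, the ferritin heavy chain, at 0.24, rose with siRNA #2 and fell with siRNA #1. Dnmt3a, a DNA methyltransferase, read 9.70 and 9.81 under the control siRNA, 10.15 and 9.99 under siRNA #1 and 9.38 and 9.39 under siRNA #2.

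Some probe sets outside the gene test rose and others fell with siRNA #2. Of 932 with several symbols 102 rose and 196 fell, and of 9160 without a symbol 370 rose and 346 fell. The largest rises among those with several symbols were 6.65 for Gm4027, BB287469 and Eif1a, 6.58 for Gm2022, Gm8300 and Gm5662, 6.50 for the Zscan4 group and 6.22 for Gm21312 and its copies. Of the probe sets with several symbols 12 rose at least 4-fold, and of those without a symbol 24. The poly-A controls averaged 8.42 and the 18S ribosomal RNA probe sets 13.11 with siRNA #2, above the control arrays.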

How the results depend on the processing

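Ncl fell in each alternative that tested it as 1 gene without a minimum fold (-0.49 to -0.44 without 1 array, and -0.94 with the mean of all probe sets). Its brightest probe set fell less than 2-fold. Without 1 array, 5553 to 8003 genes changed with siRNA #2, 2530 to 3599 rose and 2983 to 4404 fell. Tested as single probe sets, 11842 changed, 5387 up and 6455 down, and at least 2-fold 1285 genes changed, 882 up and 403 down. Centring each array on its median left 38.6% of called genes higher, against 45%. The direct comparison of the Ncl siRNAs depended more on the settings. Without 1 array 451 to 4301 genes differed, 168 to 1300 higher and 272 to 3001 lower. With quantile normalization 596 were lower, with the mean of all probe sets 790 differed (250 higher, 540 lower), without a variance trend 142 (82 and 60), at an adjusted p under 0.01 633 (222 and 411), and at least 2-fold 56 (40 and 16). Of 315 results on single genes, 304 kept their direction and call without a variance trend and 11 lost the call. On probe sets not shared with other transcripts Bmf (0.0042) and Mt1 (0.134) turned direction. The causes of these shifts were not tested. With the replicate number as a block, 7184 genes changed (3235 up, 3949 down), 1611 differed between the Ncl siRNAs (482 and 1129), and 0 single-gene calls changed. Deviations of arrays with the same number correlated at -0.0046, -0.0186 and 0.0099, so no effect shared by these arrays was seen. Whether arrays with the same number shared a culture or a processing round is not in the labels. With 2 arrays a group and probe sets near background, small differences of dim genes were not measurable.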

Other observations

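Further gene lists were counted with siRNA #2, where 17.7% of all genes rose and 21.7% fell. Of 28 genes of epithelial junctions 18 rose and 4 fell. Dsc2, a desmosomal cadherin, rose by 2.70 (SE 0.23), the claudins Cldn6 and Cldn4 by 2.04 (SE 0.085) and 2.02 (SE 0.069), and Cdh1, E-cadherin, by 0.25 (SE 0.062), while Tjp3, a tight junction scaffold, fell by 0.80. Of 16 mesenchymal genes 5 rose, among them Cdh2, N-cadherin, by 1.96 (SE 0.091) and Vim, vimentin, by 1.50 (SE 0.069), and 2 fell, Tcf4 (-0.99) and Fn1, fibronectin (-0.43). Of 18 secreted proteases and inhibitors 10 rose and 0 fell, Mmp9, a gelatinase, by 2.25 (SE 0.15) and Plat, the tissue plasminogen activator, by 1.72 (SE 0.16). In the Nodal and BMP pathways 9 of 24 rose and 8 fell. The BMP targets Smad6, Id2 and Id3 rose by 1.99 (SE 0.15), 1.27 (SE 0.066) and 1.08 (SE 0.074), and Inhbb, an activin subunit, fell by 1.40.

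Of 27 lysosome genes 11 rose and 10 fell (6 with the mean of all probe sets). Ctsd, cathepsin D, read 10.42 and 10.40 under the control siRNA and 12.26 and 12.32 under siRNA #2, and Glb1, the lysosomal galactosidase, fell by 1.29. Of 19 antioxidant genes 11 fell and 5 rose, with Sod2, the mitochondrial superoxide dismutase, down from 12.62 and 12.65 to 11.45 and 11.52 and Gpx3, a secreted glutathione peroxidase, up by 2.47 (SE 0.078). Of 14 genes of the Myc network 6 fell and 3 rose, with 3 falling without control replicate 2 or siRNA #2 replicate 1 and 1 rising in each fit without a control or siRNA #2 array. Mxd4, an antagonist of Myc, rose by 1.45 (SE 0.11), and Myc itself differed by 0.099 (limma adjusted p = 0.355). In the LIF pathway 7 of 14 rose and 6 fell. Lif, the ligand, rose by 1.28 (SE 0.16) and Junb, a factor of the AP-1 family, by 1.83 (SE 0.10).

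Among probe sets with several symbols, those shared by Sprr2a and its near copies, genes of the skin envelope, rose by 2.70 and 2.58, and were higher with siRNA #2 than with siRNA #1 by 1.72 and 1.92.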
